A study of Mus musculus with 6 samples.

Results

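The histone acetyltransferase genes are a group of 10 genes, Ep300, Crebbp, Kat2a, Kat2b, Kat5, Kat6a, Kat6b, Kat7, Kat8 and Hat1, and they were read here as chromatin, through the acetylated histone H3 (H3ac) that lay over them in mouse mesenchymal stem cells (MSCs). The members were the regions of the deposited H3ac table that overlapped the body of 1 of these genes extended by 5 kb on each side (GENCODE release M21, mm10). This gave 20 of the 24431 regions in the table, at least 1 for each of the 10 genes. Of the 20 regions, 9 were promoter regions, which lay within 1 kb of the start of the gene, and 1 lay over later transcript starts of Kat6b. Another 7 were intragenic, and 3 lay over the start site of a neighbouring gene. Of these 3, the regions beside Crebbp and Kat2a lay in the 5 kb margin. That of Kat5 also reached into the gene and covered 1 Kat5 transcript start.

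H3ac was profiled by CUT&RUN, in which an antibody tethers a nuclease to marked chromatin and the released fragments are sequenced, in 6 libraries that formed 3 groups of 2. The Young group came from mice of 3 to 5 months and the Old group from mice of 18 to 22 months, and neither was treated. The OldAcetate group came from mice of 18 to 22 months, and its cells were treated with sodium acetate at 5 mM over 3 days. The oxygen level was 2% for all cells, and the labels do not say whether the 2 libraries of a group came from separate mice or cultures, so the tests below measure only the spread between these libraries. The comparison of Old with Young asks whether H3ac over these genes differs with age, and that of OldAcetate with Old whether acetate, a source of acetyl-CoA, changes it in old cells.

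Histone acetyltransferases move the acetyl group of acetyl-CoA onto lysines of the histone tails, a mark that accompanies open chromatin at active promoters and enhancers. The paralogues p300 (Ep300) and CBP (Crebbp) are coactivators recruited by many transcription factors. GCN5 (Kat2a) and PCAF (Kat2b) work within the SAGA and ATAC complexes, and the MYST family holds TIP60 (Kat5), MOZ (Kat6a), MORF (Kat6b), HBO1 (Kat7) and MOF (Kat8), each with its own partner subunits. HAT1 acetylates newly made histone H4 before it is deposited on DNA. What is measured here is the mark over the genes that encode these enzymes, not the amount or activity of the enzymes.

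The libraries held between 2163351 reads (Old replicate 1) and 3039481 reads (Young replicate 1), as recovered from the values, and values are in RPM as deposited, that is, reads scaled to a common library total. The share of reads inside the 24431 regions was 64.8% and 57.8% for Young, 49.9% and 45.9% for Old and 57.3% and 56.3% for OldAcetate. The median change over all regions, as the values were given, was correspondingly -0.35 on the log2 scale for Old vs Young and 0.24 for OldAcetate vs Old. Changes were tested after removing this shared shift, which is called scaling below. For each library, the log2 difference of each region from its mean over the libraries was taken, and the median of these differences was subtracted. The change in the values as given stands beside a start-site or other named region where its direction differed. All 8 MSC markers had an H3ac region at their start site (2.09 to 3.70 RPM per kb), as did 1 of 5 blood markers (Spi1) and 0 of 4 endothelial markers. The summed RPM over the MSC marker regions was 521 to 616 in Young, 435 to 463 in Old and 572 to 575 in OldAcetate, that over the Spi1 region was 22.5 to 22.7, 17.1 to 17.9 and 19.8 to 22.9, and the part of cell composition in the results below was not tested.

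Each region name in the table carries the letters Y, O and AC in some combination, which the labels do not define and which are read here as the groups in which the region was called. Of the 20 regions, 15 carried all 3 letters, and 5 carried Y and AC without O, against 12.1% of all regions. The latter were the promoter regions of Kat2a, Kat5 and Kat8 and the regions at the far ends of Kat2a and Kat5 that lay over the starts of Dhx58 and Rnaseh2c. Among promoter regions the share was 3 of 9, against 6.59% of all promoter regions. The letters rest on the same libraries as the values and are no independent evidence of a difference. Promoter regions with Y and AC alone were also lower when averaged over the 6 libraries, with a median of 8.96 RPM against 19.6 RPM for those with all 3 letters.

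Sequence upstream of the annotated starts is shown for 4 of the genes, Kat2a and Kat8 from the set without the letter O and Kat6b and Kat7 from the set with all 3 letters, so that the base composition beneath the regions can be seen. RefSeq gave windows of 250 bases before its own starts for 9 of the 10 genes, 13 windows in all (GRCm38.p6, the mm10 assembly). Those of Ep300, Crebbp and Hat1 lay wholly in annotated exons, past the GENCODE start of the gene, and those of Kat6b overlapped each other. The stretches below hold only bases outside annotated exons and run 5′ to 3′ on the strand of the gene, with each CpG dinucleotide in capitals. They lie at chr11:100712468-100712717 on the minus strand for Kat2a and chr7:127912764-127913013 on the plus strand for Kat8 (before a start inside the gene). For Kat6b the stretch lies at chr14:21499520-21499769 on the plus strand (also before a start inside the gene), and for Kat7 at chr11:95310247-95310428 on the minus strand.
Kat2a: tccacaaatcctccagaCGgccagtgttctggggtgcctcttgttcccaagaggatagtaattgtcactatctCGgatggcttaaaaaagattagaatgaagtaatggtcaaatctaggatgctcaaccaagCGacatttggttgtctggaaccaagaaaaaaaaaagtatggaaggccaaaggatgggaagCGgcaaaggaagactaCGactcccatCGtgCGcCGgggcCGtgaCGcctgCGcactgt
Kat8: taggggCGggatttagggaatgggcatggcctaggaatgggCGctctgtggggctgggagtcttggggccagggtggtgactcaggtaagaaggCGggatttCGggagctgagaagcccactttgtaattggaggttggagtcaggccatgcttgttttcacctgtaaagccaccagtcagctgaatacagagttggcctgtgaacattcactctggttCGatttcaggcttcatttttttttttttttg
Kat6b: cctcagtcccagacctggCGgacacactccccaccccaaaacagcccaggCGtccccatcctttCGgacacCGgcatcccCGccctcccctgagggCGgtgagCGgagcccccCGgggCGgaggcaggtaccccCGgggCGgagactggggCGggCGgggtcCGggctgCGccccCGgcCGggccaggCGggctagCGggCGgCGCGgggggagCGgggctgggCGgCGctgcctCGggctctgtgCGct
Kat7: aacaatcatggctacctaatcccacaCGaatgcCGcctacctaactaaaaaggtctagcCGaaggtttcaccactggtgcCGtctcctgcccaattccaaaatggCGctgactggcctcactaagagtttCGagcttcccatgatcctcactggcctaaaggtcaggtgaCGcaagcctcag

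The 250 bases of Kat6b held 27 CpG, those of Kat2a 11 and those of Kat8 5, while the 182 bases of Kat7 held 7. A window of 250 bases in an H3ac region held a median of 15 CpG over 15008 such RefSeq windows, so Kat6b stood above the middle of the range and the Kat2a and Kat8 stretches below it. The base composition did not follow the letters, since the whole window of Kat7, from the set with all 3 letters, held 8 CpG, while the 2 windows of Kat5, from the set without the letter O, held 24 and 15, and the Kat8 window at its first start held 10. Over the whole regions, the 9 promoter regions of the acetyltransferase genes had a median of 27.0 CpG per kb, against 23.6 per kb over all 9892 promoter regions, and their 7 intragenic regions had a median of 9.65 per kb, against 10.6 per kb over all other regions. Motifs were searched as exact letters on both strands of the 13 windows, and none of them contains another. Of these motifs, the GC box (GGGCGG) was found in 8 of the 13 windows (6 of 9 genes), against 55.0% of the windows in H3ac regions, and the CCAAT box (CCAAT) in 6 of 13 (5 of 9 genes), against 34.0%. The E-box (CACGTG) was found in 2 of 13 windows, those of Kat5 and Hat1, against 7.86%, and the ETS motif (CCGGAAG) in 1 of 13, that of Hat1, against 12.2%. No window held a TATA box (TATAAA) or a CRE (TGACGTCA), which were present in 6.44% and 2.46% of windows in H3ac regions. These matches describe letters in the windows, exon bases included, and not bound sites.

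The genes differed in how far H3ac extended along them. Over Ep300, Kat7, Kat8 and Hat1, a single region sat at the start of the gene, between 2500 bp long for Hat1 and 5500 bp long for Kat7, and the rest of the gene body held no region. Kat2b, Kat6a and Kat6b had several regions inside the gene. The Kat2b promoter region was 24500 bp long, longer than 94.5% of all promoter regions, and 2 more regions followed inside the gene, so that 34.6% of the gene body lay in H3ac regions. In Kat6a, 3 regions covered 43.0% of the gene, and in Kat6b 4 regions covered 35.3%. This share also depends on gene length. It was 37.7% for Kat5 and 19.0% for Kat2a, which are only 7.22 and 7.72 kb long. The annotated 5′ end of Kat6b had no region within 1 kb, and the nearest one, 15067 bp downstream, covered 6 other annotated Kat6b transcript starts. Crebbp, although 133 kb long, had 1 region of 11000 bp over its start, and only 6.78% of the gene lay in regions.

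**Figure D1:**
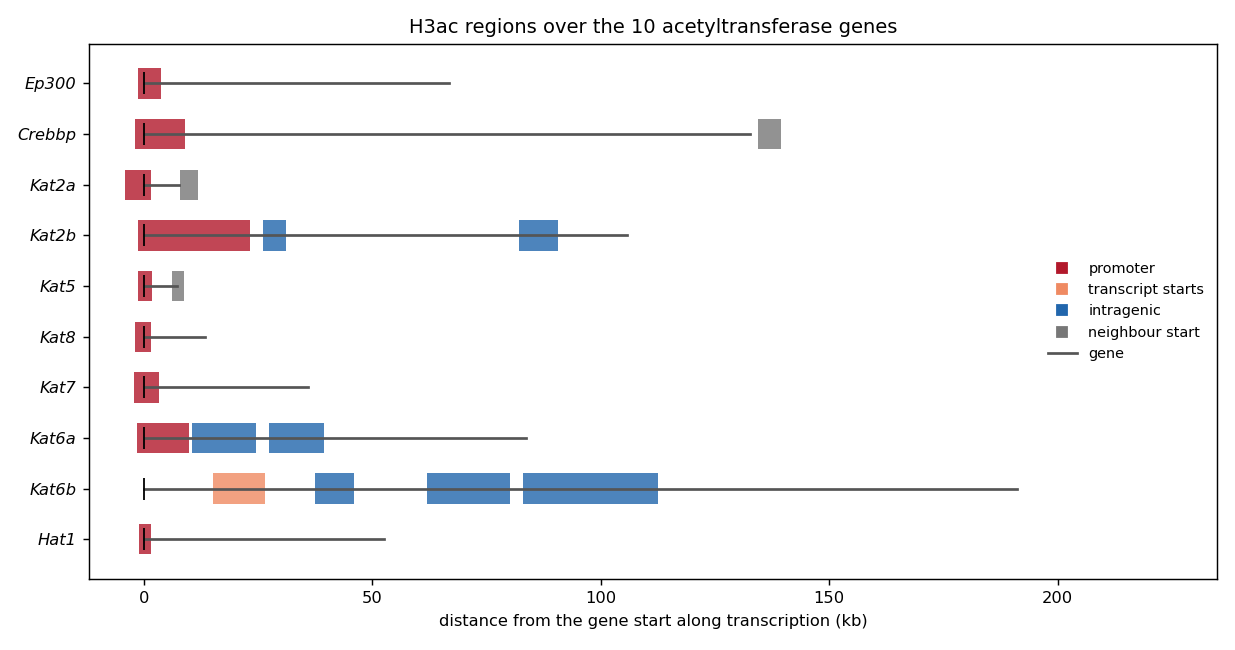
Map of the 20 H3ac regions over the 10 acetyltransferase genes, drawn to scale by distance from the annotated gene start in the direction of transcription (kb). Grey lines are genes and boxes are regions, coloured by class. Kat2b, Kat6a and Kat6b carry several regions inside the gene, and the other genes carry H3ac only at their start or over the start of a neighbour.

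Per kb of region, the mean over the 6 libraries was highest for Ep300, at 3.76 ± 0.73 RPM per kb (SD, n = 6 libraries of 3 groups), followed by Hat1 (3.58 ± 0.97) and Kat2b (3.26 ± 0.51). Kat7 had 3.05 ± 0.53 RPM per kb, close to the median of 3.07 over all promoter regions. Kat5 (2.76 ± 1.13), Kat6b (2.67 ± 0.50), Kat6a (2.65 ± 0.59) and Kat8 (2.45 ± 0.73) followed below that median. The lowest values were those of Crebbp, at 1.99 ± 0.22, and Kat2a, at 1.95 ± 0.56 RPM per kb. The ranges over the 6 libraries, which pool 3 groups, overlapped between every pair of neighbours in this order. Compared within each library, the higher gene of a pair was above the next in 3 (Kat7 over Kat5) to 5 (such as Ep300 over Hat1) of 6 libraries. No order of neighbours thus held in every library. By this density, Crebbp and Kat2a lay at the 1.90th and 1.45th percentile of all promoter regions, while Ep300, the paralogue of Crebbp, lay at the 80.9th. Density divides by region length, which was 11000 bp for Crebbp and 5000 bp for Ep300. By RPM over the whole region, Crebbp lay at the 59.6th percentile and Ep300 at the 51.0th, with Kat2a at the 19.1th and Hat1 at the 11.4th. The order of the group means was not the same in the 3 groups. In Young the highest mean was that of Hat1, at 4.05 RPM per kb, before Ep300 at 3.48, and the lowest was that of Crebbp, at 2.17. Kat5 had rank 4 of 10 in Young and rank 9 in Old, at 1.49 RPM per kb, and Kat2a was lowest in Old, at 1.26, while Crebbp was lowest in OldAcetate, at 1.96.

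**Figure D2:**
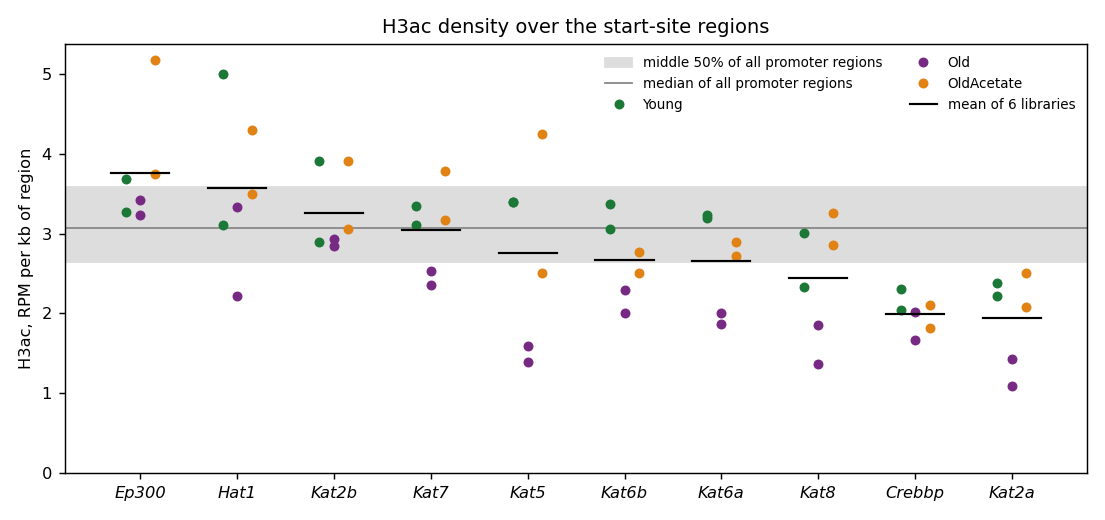
H3ac density (RPM per kb of region, linear axis from 0) over the start-site region of each acetyltransferase gene, ordered by the mean of the 6 libraries (black bars); points are single libraries coloured by group, and the grey band and line are the middle 50% and the median of all promoter regions. Ep300 is highest at 3.76 and Kat2a lowest at 1.95 RPM per kb, and neighbours overlap throughout.

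After scaling, none of the 20 regions passed an adjusted p of 0.05 in any comparison (limma, Benjamini-Hochberg over all 24431 regions), and this was also the case for nearly all of the table. In Old vs Young 0 of 20 were called, against 0.00819% of all regions, and 3 of 20 had an unadjusted p under 0.05, against 5.54%. OldAcetate vs Old likewise had 0 of 20 called, against 0.0% of all regions, and 5 of 20 had an unadjusted p under 0.05, against 6.24%. For OldAcetate vs Young 0 of 20 were called, against 0.0%, and 1 of 20 had an unadjusted p under 0.05, against 5.08%. In the values as given, 4 of the 20 regions were lower in Old than in Young at an adjusted p under 0.05, against 9.5% of all regions. These were the promoter regions of Kat2a, Kat5 and Kat6a and the start-site region of Kat6b. Among promoter regions alone, 3 of 9 were called, against 11.2% of all promoter regions. No region of the group was called higher in OldAcetate than in Old in the values as given, against 0.311% of all regions, and none was called lower or higher in OldAcetate than in Young, against 0.0% and 0.0%. Without an OldAcetate library, the log2 changes of Old vs Young in the values as given were the same, and only the spread estimate behind the test differed. The 4 calls for Old vs Young were not stable when single libraries were left out. Those of Kat2a (limma adjusted p = 0.0499), Kat5 and Kat6b held with Old replicate 1 left out and were lost without any other library, and that of Kat6a was lost without Young replicate 1 or without Old replicate 2. The limma adjusted p then lay between 0.0769 and 0.255 for Kat2a, between 0.0505 and 0.241 for Kat5 and between 0.0616 and 0.299 for Kat6b, and was 0.202 and 0.0754 for Kat6a, with the changes still below 0 in each case.

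**Figure D3:**
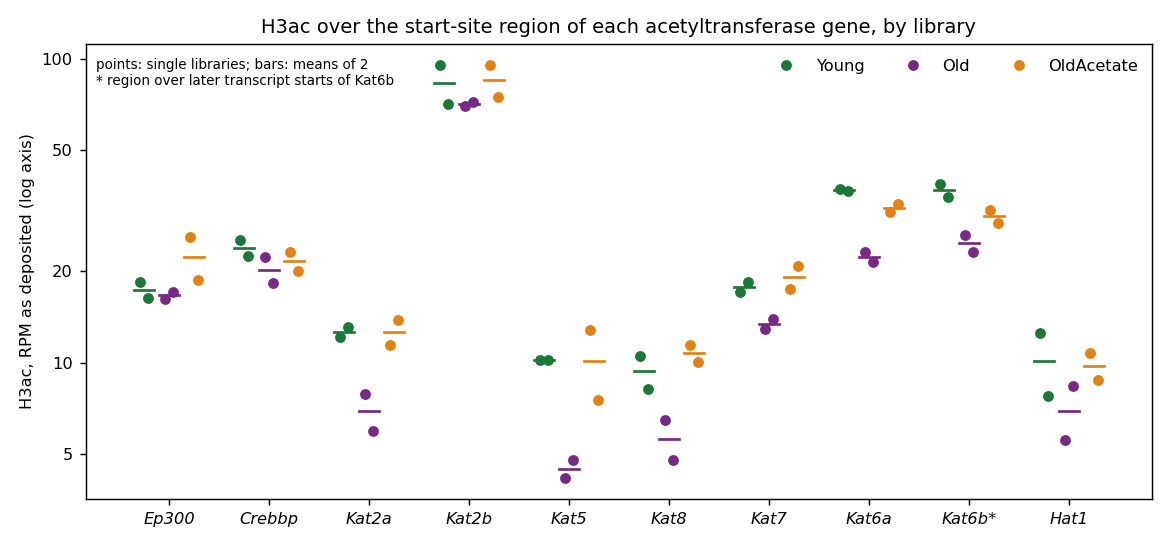
H3ac over the start-site region of each acetyltransferase gene in every library (RPM as deposited, log axis), with points for the 2 libraries of each group and bars for their means; the Kat6b region lies over later transcript starts. The Old libraries of Kat2a, Kat5, Kat6a, Kat6b, Kat7 and Kat8 sit below both other groups, and those of Ep300, Kat2b and Hat1 overlap the Young libraries.

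Of the coactivator pair, the Ep300 promoter region (ENSMUSG00000055024.12, chr15:81584001-81589000, 5000 bp) measured 18.4 and 16.3 RPM for Young, 16.2 and 17.1 for Old and 25.9 and 18.8 for OldAcetate. Young and Old overlapped, and both OldAcetate libraries lay above all others. After scaling, the log2 change was 0.29 (SE 0.21) for Old vs Young, 0.16 (SE 0.21) for OldAcetate vs Old, and 0.45 (SE 0.21) for OldAcetate vs Young, the last with a 95% interval from 0.02 to 0.88 and a limma adjusted p of 0.964. The sign in Old vs Young depended on the scaling, since the values as given had a log2 change of -0.06.

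The Crebbp promoter region (ENSMUSG00000022521.10, chr16:4205001-4216000, 11000 bp) measured 25.3 and 22.5 RPM for Young, 22.2 and 18.3 for Old and 23.2 and 20.0 for OldAcetate. The 3 groups lay close together, with Old just below Young. Its log2 change after scaling was 0.11 (95% interval -0.28 to 0.51) for Old vs Young, -0.14 (-0.54 to 0.25) for OldAcetate vs Old and -0.03 (-0.43 to 0.36) for OldAcetate vs Young. Before scaling the first 2 changes were -0.24 and 0.09, so both signs turned with the scaling. The region within 5 kb of the end of Crebbp lay over the start of Trap1, a mitochondrial chaperone, and measured 18.8 and 18.8 RPM for Young, 11.6 and 13.1 for Old and 20.8 and 19.6 for OldAcetate. That neighbour was lower in both Old libraries than in all others and, at 3.42 RPM per kb, the densest region outside the start sites of the 10 genes. Its log2 change for OldAcetate vs Old after scaling was 0.45 (SE 0.22, limma adjusted p = 0.788).

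Of the SAGA and ATAC enzymes, the Kat2a promoter region (ENSMUSG00000020918.14, chr11:100711001-100716500, 5500 bp) measured 12.2 and 13.1 RPM for Young, 7.86 and 5.97 for Old and 11.4 and 13.8 for OldAcetate. Both Old libraries lay below all 4 others, and Young and OldAcetate overlapped. The Old libraries held 17 and 15 reads, and 15 reads alone give a counting error of 25.8%. The region also holds the start of Hspb9, a small heat shock protein gene that runs the other way, so its H3ac cannot be assigned to Kat2a alone. After scaling, the log2 change was -0.48 (SE 0.27, limma adjusted p = 0.898) for Old vs Young, 0.59 (SE 0.27, adjusted p = 0.777) for OldAcetate vs Old and 0.10 (SE 0.27) for OldAcetate vs Young. Before scaling the changes for Old vs Young and OldAcetate vs Young were -0.84 and -0.0080. The region past the end of Kat2a, over the start of the RNA sensor gene Dhx58, measured 12.2 and 16.3 RPM for Young, 11.1 and 5.57 for Old and 12.8 and 16.3 for OldAcetate. Both Old libraries were lowest there too, with 14 reads in Old replicate 2. The log2 change was 0.59 (SE 0.28, limma adjusted p = 0.777) for OldAcetate vs Old.

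The Kat2b promoter region (ENSMUSG00000000708.14, chr17:53565501-53590000) had the highest summed signal of the group, with 95.7 and 71.1 RPM for Young, 69.8 and 72.0 for Old and 95.8 and 75.1 for OldAcetate. The spread between the 2 Young and between the 2 OldAcetate libraries was larger than the distance between group means. The log2 change after scaling was 0.13 (95% interval -0.10 to 0.37) for Old vs Young and 0.02 (-0.22 to 0.25) for OldAcetate vs Old, the narrowest intervals among the start-site regions, with at least 151 reads behind each value. In the values as given the change for Old vs Young was -0.22, so its sign turned with the scaling. Its paralogue Kat2a thus had the lower density and the larger difference between groups, a contrast given here as a description. The first intragenic region of Kat2b, at chr17:53593001-53598000, measured 14.1 and 11.4 RPM for Young, 13.9 and 13.1 for Old and 10.8 and 12.5 for OldAcetate, with a log2 change of 0.43 (SE 0.25) for Old vs Young and -0.45 (SE 0.25) for OldAcetate vs Old after scaling.

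In the MYST family, Kat5 encodes the catalytic subunit of the NuA4/TIP60 complex, which acetylates histones H4 and H2A and takes part in the response to DNA damage. Its promoter region (ENSMUSG00000024926.10, chr19:5608501-5611500, 3000 bp) measured 10.2 RPM for both Young libraries, 4.16 and 4.77 for Old and 12.8 and 7.51 for OldAcetate. Old was below all other libraries, at 43.8% of the Young mean, and the 2 OldAcetate libraries lay on either side of Young. The log2 change after scaling was -0.76 (SE 0.33, limma adjusted p = 0.865) for Old vs Young and 0.82 (SE 0.33, adjusted p = 0.753) for OldAcetate vs Old, in absolute size the largest of the 10 start-site regions in either comparison. It was 0.06 (95% interval -0.60 to 0.71) for OldAcetate vs Young (-0.05 in the values as given), and -1.11 (adjusted p = 0.0301) for Old vs Young in the values as given. The region was also among the thinnest, with 9 reads in Old replicate 1, which alone gives a counting error of 33.3%. The region at the other end of Kat5, over the start of Rnaseh2c, a subunit gene of ribonuclease H2, measured 7.24 and 4.49 RPM for Young, 4.16 and 5.97 for Old and 6.72 and 9.59 for OldAcetate, and Young and Old overlapped there. Its log2 change after scaling was 0.57 (SE 0.37) for OldAcetate vs Young. This region also reached into Kat5 and covered 1 Kat5 transcript start, so its H3ac cannot be assigned to Rnaseh2c alone.

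Kat8 encodes MOF, which acetylates histone H4 within the MSL and NSL complexes. Its promoter region (ENSMUSG00000030801.10, chr7:127910501-127914000, 3500 bp) measured 10.5 and 8.17 RPM for Young, 6.47 and 4.77 for Old and 11.4 and 10.0 for OldAcetate. Both Old libraries were below all others, at 60.1% of the Young mean. They held 14 and 12 reads, and 12 reads alone give a counting error of 28.9%. The log2 change after scaling was -0.34 (SE 0.31) for Old vs Young and 0.65 (SE 0.31, 95% interval 0.03 to 1.26, limma adjusted p = 0.777) for OldAcetate vs Old. Kat7 encodes HBO1, an H3 and H4 acetyltransferase linked to replication origins. Its promoter region (ENSMUSG00000038909.16, chr11:95307001-95312500, 5500 bp) measured 17.1 and 18.4 RPM for Young, 12.9 and 13.9 for Old and 17.5 and 20.9 for OldAcetate. Old was again lowest in both libraries, with a log2 change of -0.39 for Old vs Young before scaling, close to the shift shared by all regions. After scaling the change was -0.04 (95% interval -0.49 to 0.41) for Old vs Young and 0.25 (-0.19 to 0.70) for OldAcetate vs Old.

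Kat6a and Kat6b encode MOZ and MORF, H3 acetyltransferases that work with BRPF scaffold proteins and are known for their roles in blood and skeletal development. The Kat6a promoter region (ENSMUSG00000031540.13, chr8:22858001-22869500, 11500 bp) measured 37.2 and 36.8 RPM for Young, 23.1 and 21.5 for Old and 31.3 and 33.4 for OldAcetate. The 3 groups did not overlap, with Young highest and Old lowest, and the Old mean was 60.3% of the Young mean. The log2 change was -0.37 (SE 0.17, limma adjusted p = 0.894) for Old vs Young after scaling and -0.72 (SE 0.19, adjusted p = 0.0172) in the values as given, and 0.29 (SE 0.17) for OldAcetate vs Old after scaling. The intragenic regions of Kat6a did not share this order. The one at chr8:22870001-22884000 measured 27.6 and 23.7 RPM for Young, 30.5 and 22.7 for Old and 22.5 and 38.4 for OldAcetate, with log2 changes after scaling of 0.39 (SE 0.19) for Old vs Young and 0.31 (SE 0.19) for OldAcetate vs Young. The one at chr8:22887001-22899000 measured 23.0 and 19.2, 18.5 and 19.5, and 22.8 and 25.0 RPM.

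The start-site region of Kat6b (ENSMUSG00000021767.18, chr14:21496501-21508000, 11500 bp) measured 38.8 and 35.1 RPM for Young, 26.3 and 23.1 for Old and 31.9 and 28.8 for OldAcetate. The groups were again in separate ranges, in the same order as for Kat6a. The log2 change was -0.22 (SE 0.17, limma adjusted p = 0.928) for Old vs Young after scaling and -0.57 (SE 0.19, adjusted p = 0.0432) in the values as given. The longest region of the group, inside Kat6b at chr14:21564501-21594000 (29500 bp), measured 66.8 and 53.9 RPM for Young, 63.8 and 52.1 for Old and 58.5 and 60.9 for OldAcetate, and its groups overlapped in the values as given. After scaling it had a log2 change of 0.29 (SE 0.13, limma adjusted p = 0.865) for Old vs Young, against -0.06 before scaling. The intragenic region at chr14:21543501-21561500 measured 59.9 and 49.0 RPM for Young, 46.2 and 38.2 for Old and 41.3 for both OldAcetate libraries, and had log2 changes of -0.26 (SE 0.14) for OldAcetate vs Old and -0.28 (SE 0.14) for OldAcetate vs Young after scaling. The region at chr14:21519001-21527500 was the densest intragenic region of the 3 genes that have them, at 2.67 ± 0.41 RPM per kb (SD, n = 6 libraries).

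The Hat1 region was the shortest of the start-site regions (ENSMUSG00000027018.11, chr2:71388001-71390500, 2500 bp), which measured 12.5 and 7.76 RPM for Young, 5.55 and 8.35 for Old and 10.8 and 8.76 for OldAcetate. Young and Old overlapped, and the 2 Young libraries lay farther apart than the group means did. Old replicate 1 held 12 reads. The log2 change after scaling was -0.15 (95% interval -0.77 to 0.46) for Old vs Young, 0.24 (-0.38 to 0.86) for OldAcetate vs Old and 0.09 (-0.53 to 0.71) for OldAcetate vs Young, where the value before scaling was -0.02.

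The 9 promoter regions had a median log2 change of -0.15 for Old vs Young after scaling, against -0.01 over all 9892 promoter regions, with 6 of 9 below 0 against 5053 of 9892. Within a library, the median scaled log2 level of these 9 regions had a pooled SD of 0.11 between the replicates of a group. The direction of the median change was not stable, since it was 0.037 without Old replicate 1 and 0.031 without the lowest 25% of regions. For OldAcetate vs Old the median was 0.25, against 0.05, with 8 of 9 above 0 against 5973 of 9892, and in OldAcetate vs Young it was 0.10, against 0.05. The 2 comparisons that involve the Old group share the same Old libraries, so a low Old value enters them with opposite signs. Before scaling, the medians were -0.50 against -0.36 over all promoter regions in Old vs Young, with 9 of 9 below 0, as were 9276 of all 9892. They were 0.49 against 0.29 for OldAcetate vs Old, with 9 of 9 above 0, as were 8897 of 9892, and -0.01 against -0.06 for OldAcetate vs Young. The other 11 regions had medians of 0.17, -0.08 and 0.12 after scaling in the 3 comparisons, and of -0.18, 0.16 and 0.0061 before it.

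**Figure D4:**
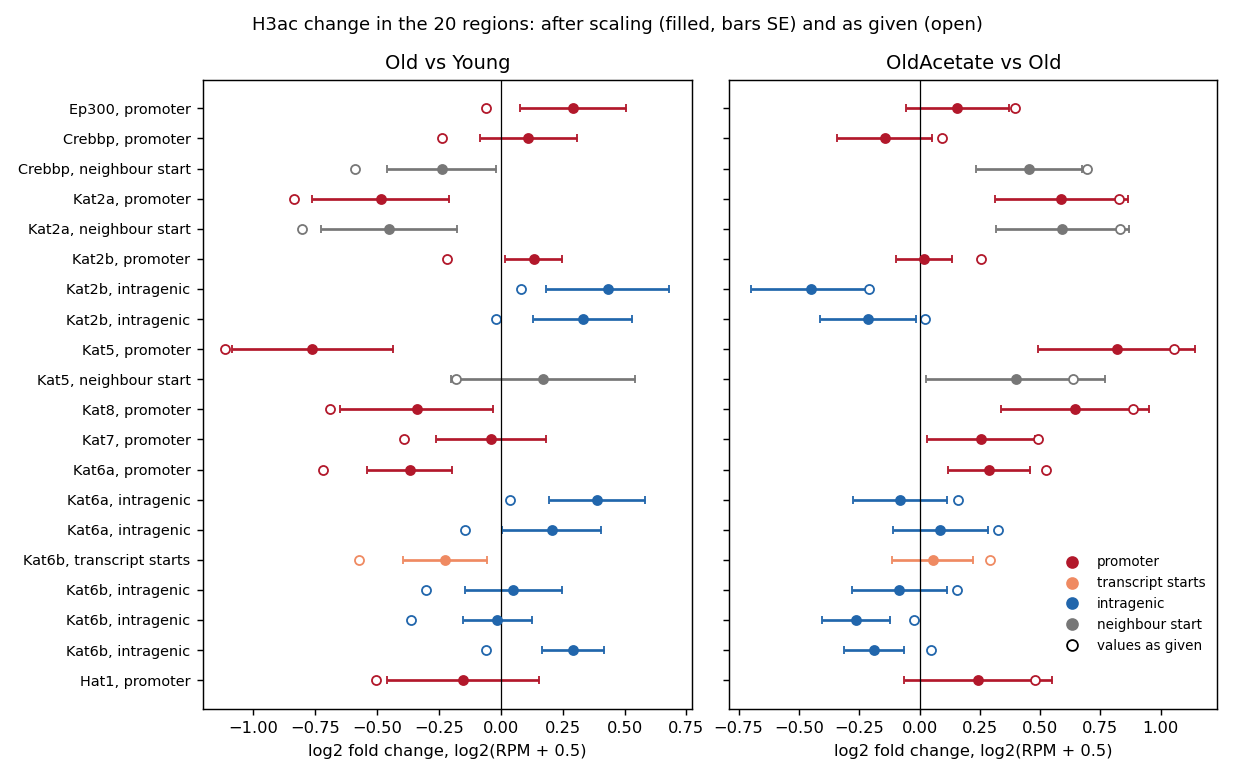
Log2 fold change of H3ac in each of the 20 regions for 2 comparisons, Old vs Young (left) and OldAcetate vs Old (right), on the log2(RPM + 0.5) scale; filled points are values after scaling with bars of 1 SE, open points are values as given, and colours mark the region class. Kat5 has the largest changes, -0.76 and 0.82 after scaling, while the intragenic regions of Kat2b, Kat6a and Kat6b lie between -0.01 and 0.43 for Old vs Young after scaling.

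The separation of the groups was also counted. In the values as given, 10 of the 20 regions had both Old libraries below both Young libraries, against 60.2% of all regions, and 0 had both above, against 1.29%. Both OldAcetate libraries lay above both Old libraries in 14 of 20, against 47.1%, and below them in 1 of 20, against 3.46%. Among promoter regions alone, Old was below Young in 6 of 9, against 65.7% of all promoter regions. OldAcetate was above Old in 8 of 9 promoter regions, against 58.6%, and below it in 0 of 9, against 1.94%. Against Young, both OldAcetate libraries were lower in 3 of 20 (29.8% of all regions) and higher in 2 of 20 (7.6%). After scaling, Old was below Young without overlap in 6 of 20 regions, against 17.1%, and above it in 7 of 20, against 16.9%. OldAcetate was then below Old in 4 of 20, against 17.2%, and above it in 7 of 20, against 16.7%. Among promoter regions alone, OldAcetate was then above Old in 5 of 9, against 22.3% of all promoter regions, and below it in 0 of 9, against 11.6%. For Old vs Young, 4 of 9 promoter regions were lower, against 17.0%, and 2 of 9 higher, against 16.8%. Of all 20 regions, the 6 lower in Old than in Young after scaling were the start-site regions of Kat2a, Kat5, Kat6a, Kat6b and Kat8 and the Trap1 start beside Crebbp. The 7 higher in Old were the promoter regions of Ep300 and Crebbp and 5 intragenic regions of Kat2b, Kat6a and Kat6b.

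In Kat2b, Kat6a and Kat6b the start site can be set against the intragenic regions of the same gene in the same library. A factor common to the whole library cancels in this ratio, but reads of an even background do not, and their part was not tested. The ratio was chosen after the values were seen. It was computed for these genes only, so no share over other genes stands beside it. The first Kat6a intragenic region, from 22870001, began just past the end of the promoter region at 22869500. For Kat6a the start-site RPM over the summed intragenic RPM was 0.734 and 0.857 for Young, 0.472 and 0.509 for Old and 0.689 and 0.526 for OldAcetate. Both Old libraries were below all others, with a mean of 0.491 ± 0.027 against 0.795 ± 0.087 in Young (SD, n = 2). The ratio for Kat6b was 0.249 and 0.283 for Young, 0.204 and 0.206 for Old and 0.261 and 0.231 for OldAcetate, in the same order of groups. For Kat2b it was 2.80 and 1.96 for Young, 1.89 and 2.10 for Old and 3.06 and 2.02 for OldAcetate, and the groups overlapped. On the log2 scale, Old minus Young was -0.69 for Kat6a, -0.37 for Kat6b and -0.23 for Kat2b. An exact two-sided permutation test over libraries gave p = 0.333 for Kat6a and Kat6b, the smallest that 2 libraries against 2 can give, and p = 0.667 for Kat2b, so no threshold could be passed.

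**Figure D5:**
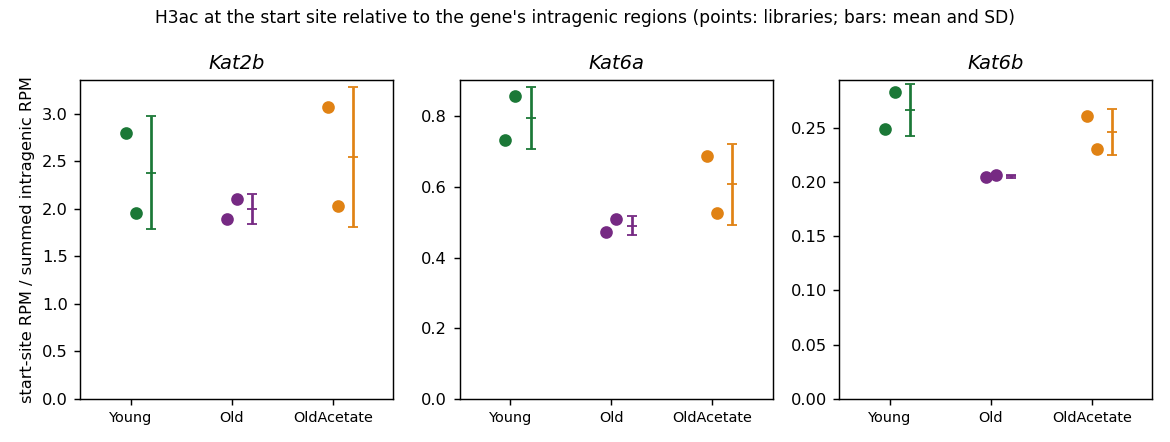
Ratio of start-site RPM to the summed RPM of the intragenic regions of the same gene, by library (linear axis from 0), for Kat2b, Kat6a and Kat6b; points are libraries and bars are the mean and SD of 2. The Old libraries of Kat6a (0.472 and 0.509) and Kat6b (0.204 and 0.206) lie below all others, and those of Kat2b overlap the Young libraries.

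The wider set of acetyltransferases and of subunits that work with these enzymes was read in the same way at their start sites. It held 70 genes, 11 other acetyltransferases and 59 partner subunits, of which 66 had a region within 1 kb of the start. After scaling 0 of 66 were called in any comparison. Before scaling 9 of 66 (13.6%) were lower in Old than in Young, against 11.2% of all promoter regions, and none was higher, and none was called in the other 2 comparisons. The 9 included Gtf3c4 and Ncoa3 among the other acetyltransferases, Tada1 of SAGA, and Mrgbp, Morf4l1 and Mbtd1 of NuA4/TIP60. The rest were Brd1 of the MOZ/MORF and HBO1 complexes, and Msl1 and Kansl2 of the MOF complexes. Tada1 had the largest of these changes, at -0.79 (SE 0.21, limma adjusted p = 0.0163), with 29.6 and 34.3 RPM for Young, 19.4 and 17.1 for Old and 22.5 and 24.2 for OldAcetate.

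By complex, the median log2 change in Old vs Young after scaling was -0.05 over 21 SAGA and ATAC genes, 0.02 over 16 of NuA4/TIP60, -0.22 over 7 of the MOZ/MORF and HBO1 complexes, -0.03 over 10 of MSL and NSL and -0.17 over the 2 HAT1 partners, and -0.05 over 10 other acetyltransferases. The medians of OldAcetate vs Old were 0.07, 0.04, 0.33, 0.07, 0.46 and 0.23 in the same order. Of these small sets, the subunits of the Kat6a, Kat6b and Kat7 complexes had the lowest Old vs Young median, and none of them was called after scaling. In that set 6 of 7 were below 0, against 39 of all 66 and 5053 of the 9892 promoter regions. All 7 of 7 were above 0 for OldAcetate vs Old, which shares its Old libraries with the first comparison, against 50 of all 66 and 5973 of the 9892 promoter regions, and the 2 of lowest p were Jade3, at 0.75 (SE 0.29), and the scaffold gene Brd1, at 0.55 (SE 0.22), with limma adjusted p-values of 0.735 and 0.741. In Old vs Young the same 2 genes had the lowest p of that set, at -0.39 (SE 0.29) and -0.31 (SE 0.22).

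Among the other sets, the lowest p-values in Old vs Young belonged to Taf5l, at 0.60 (SE 0.23), and Tada1, at -0.44 (SE 0.19), of SAGA, and to Kansl3, at 0.44 (SE 0.21), and Mcrs1, at 0.26 (SE 0.23, and -0.09 before scaling), of NSL. For NuA4/TIP60 they belonged to Ruvbl2, at 0.43 (SE 0.22), and Mbtd1, at -0.27 (SE 0.19), for the other acetyltransferases to Gtf3c4, at -0.28 (SE 0.20), and Atf2, at -0.30 (SE 0.22), and for the HAT1 partners to Rbbp4, at -0.15 (SE 0.18), and Rbbp7, at -0.20 (SE 0.28). In OldAcetate vs Old they were Kat14, the ATAC acetyltransferase, at 0.60 (SE 0.22), Gtf3c4 at 0.39 (SE 0.20), Tada2b at 0.45 (SE 0.19), Yeats2 at 0.38 (SE 0.22), Mbtd1 at 0.37 (SE 0.19), Epc2 at 0.33 (SE 0.22), Kansl3 at -0.40 (SE 0.21), Wdr5 at 0.44 (SE 0.25), Rbbp7 at 0.69 (SE 0.28) and Rbbp4 at 0.23 (SE 0.18). In OldAcetate vs Young, Kat14 had 0.56 (SE 0.22), Naa40 -0.37 (SE 0.23), Taf5l 0.59 (SE 0.23), Taf12 0.45 (SE 0.19), Ing3 0.40 (SE 0.24), Morf4l1 -0.28 (SE 0.16), Jade3 0.35 (SE 0.29), Brd1 0.24 (SE 0.22), Wdr5 0.61 (SE 0.25), Hcfc1 0.39 (SE 0.27), Rbbp7 0.49 (SE 0.28) and Rbbp4 0.09 (SE 0.18, and -0.03 before scaling). None of these passed an adjusted p of 0.05 after scaling.

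The promoter regions most like that of Ep300 across the 6 libraries, among 4946 promoter regions of at least the median level, were those of Armc1 and Gm10778. The root mean square difference of their scaled and centred log2 values from Ep300 was 0.06 and 0.07, against a median of 0.25 over all regions searched. For Crebbp they were Cstad, Csnk2a1 and Adgrg3, each at 0.03, against a median of 0.17. With 6 libraries and changes near the spread between replicates, this likeness is a description of the values only.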

How the data were processed

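The authors deposited 1 table of H3ac CUT&RUN values in RPM, with a single set of regions for the 6 libraries. It is named as RPKM, but 100% of the values in each column were whole multiples of the value of 1 read whatever the region length (tolerance 0.01), so whole reads and library totals were recovered. The design had assumed RPKM, and the test was kept. The submitters' processing notes name Bowtie2, Picard and mm10. The region caller, and whether the yeast DNA added at the stop step was used for scaling, are not given in the sources used here, and no methods were taken from the paper, which describes other experiments.

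Regions were assigned with GENCODE M21. The members and gene lists were chosen with earlier results of these data known. A marker of the blood list and a promoter region alike to that of Ep300 are not reported here. The main fit used log2(RPM + 0.5) of all 24431 regions, with the median difference from the region means subtracted from each library. It was made with limma 3.58.1 (R 4.3.3) on the group means of all 6 libraries, with trended robust eBayes and Benjamini-Hochberg adjustment at 0.05. Fold changes on this scale understate those of low regions. Named were all start-site regions, the other regions called or of the 3 lowest p per comparison, and the 2 lowest p per list. Tried instead were other pseudocounts (0.1 and 1), unscaled values, quantile normalization, a filter on the lowest 25% of regions, edgeR 4.0.16 on the recovered reads, other promoter rules, the replicate number as a block, and leaving out each library. The scripts were tested on simulated data. Figures were drawn with matplotlib 3.10.9. Counting errors cover read counts only.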

Additional observations from a re-analysis of the deposited data

How the results depend on the processing

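No call depended on the pseudocount, quantile normalization, the filter on low regions, edgeR with RLE or TMM factors, eBayes without trend and robust, the use of only the compared groups or the gene rule: 0 of the 20 regions were called under each. Same-numbered libraries deviated from their group means with correlations of 0.01, -0.03 and -0.04. At this read depth counting noise alone lowers such a correlation, so it cannot show whether the libraries were paired. The numbers are used here as names only. With the replicate number as a block 0 regions were called, and the median of the 9 promoter regions for Old vs Young was -0.15 as before.

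Removing the shared shift was the choice that mattered. For Old vs Young, 4 regions were called in the values as given and 3 by edgeR without factors, with a promoter median of -0.50 and -0.55. That median was 0.031 without the lowest 25% of regions, where the Kat5, Kat8 and Hat1 promoter regions no longer entered. The median for OldAcetate vs Old was 0.49 in the values as given and 0.50 by edgeR without factors, and that for OldAcetate vs Young was -0.0080 in the values as given. Each library was also left out in turn, after scaling and, as an alternative chosen after seeing the data, in the values as given. The number called then ran from 0 to 5 for Old vs Young, the 5 in the values as given without Old replicate 1, and from 0 to 1 for OldAcetate vs Old. The promoter median for Old vs Young ran from -0.73 to 0.037 (after scaling, from -0.29 without Young replicate 2 to 0.037 without Old replicate 1). It ran from 0.14 to 0.62 for OldAcetate vs Old, and for OldAcetate vs Young it ran from -0.14 to 0.22. A lone library left in a group is assumed to vary like the others.

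Of 291 alternative values for 30 start-site changes, leaving out libraries apart, 271 kept their sign and call, 7 became called and 13 changed sign, the latter among changes that were not called. For Old vs Young, Ep300, Crebbp and Kat2b went to -0.059, -0.24 and -0.22 in the values as given and to -0.068, -0.25 and -0.24 by edgeR without factors. For OldAcetate vs Old, Crebbp went to 0.094 and 0.11. For OldAcetate vs Young, Kat2a went to -0.0080 and -0.010, Hat1 to -0.022 and -0.071, and Kat5 to -0.055 in the values as given. Leaving out 1 library turned the sign of Kat7 (-0.17 to 0.093) and Hat1 (-0.49 to 0.18) for Old vs Young. It turned Ep300 (-0.056 to 0.37), Kat2b (-0.14 to 0.18), Kat6b (-0.0065 to 0.11) and Hat1 (-0.094 to 0.58) for OldAcetate vs Old. The signs of Crebbp (-0.12 to 0.060), Kat2a (-0.037 to 0.25), Kat2b (-0.011 to 0.31), Kat5 (-0.29 to 0.41) and Hat1 (-0.16 to 0.34) turned for OldAcetate vs Young. The cause was not tested. With 31 to 56 reads in the median region of a library, and 9 to 38 behind the Kat5 promoter, depth limits what single regions can show.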
